A study of Mus musculus with 6 samples.

Results

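The genes described are 3 bone morphogenetic protein (BMP) ligands, Bmp2, Bmp4 and Bmp7, the secreted BMP antagonist gene Grem1, and 6 genes commonly read as BMP targets, Id1, Id2, Id3, Id4, Msx1 and Msx2. They were chosen by name, as the non-control probes whose RefSeq accession maps to one of these symbols. All 10 were on the array, with 11 probes of 39429, and all 10 were among the 19795 genes tested. Of these 19795, 14211 carried a RefSeq symbol, and the rest were counted under their accession. RNA came from trunks of mouse embryos at embryonic day 9.5, cut from the otic vesicle back to somite 15, forelimb buds included. The groups were wild type and Arid3b-null, 3 one-colour Agilent arrays each, and per the labels' protocols each array carried RNA pooled from 4 embryos. Arid3b encodes a DNA-binding protein with an AT-rich interaction domain. The sources used here do not give the null allele, the strain or the embryos' somite numbers. Each p-value sets the difference between the groups against the spread between these pools. In the main fit that spread includes any difference between slides.

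BMP ligands are secreted dimers that bind pairs of serine/threonine kinase receptors. The receptors phosphorylate Smad1, Smad5 and Smad9, which enter the nucleus with Smad4 and switch on targets such as the Id genes. Id proteins carry a helix-loop-helix without the basic DNA-binding stretch and hold E proteins away from DNA, while Msx proteins are homeodomain repressors. In the trunk of this stage BMPs from the roof plate, surface ectoderm and lateral mesoderm pattern the dorsal neural tube, somites and limb buds, and Grem1 limits BMP activity in limb bud mesenchyme.

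Bmp2, Bmp4, Grem1, Msx1 and Msx2 were higher in Arid3b-null trunks, Id4 was lower, and Bmp7, Id1, Id2 and Id3 did not pass the test. Of the 10 genes 5 rose and 1 fell (limma, Benjamini-Hochberg adjusted p under 0.05). Bmp2 and Grem1 rose 1.93-fold each, Msx1 1.65-fold, Msx2 1.55-fold and Bmp4 1.34-fold, and Id4 fell 2.50-fold. Over all tested genes 26.6% were called, 13.6% higher and 12.9% lower, so the members' share of 60% called stood above that background, as a description of genes chosen with earlier results of these data known. The median log2 change of the members was 0.45, against -0.04 over all genes tested. For 7 of the 10 genes every array of 1 group lay above every array of the other, against 46.1% of all genes. The calls changed with the handling of local background. With normexp correction by local background 0 members passed in limma (6 at an unadjusted p under 0.05), with adjusted p from 0.402 for Id4 to 0.612 for Id1, and 7 passed once 12 deviant spots were left out.

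The 75th percentile of the processed signal was 611 to 844 units on the 6 arrays, 60.7% to 68.1% of probes were well above background, and values below are log2 signals relative to that percentile. Arid3b read 2.18, 2.57 and 1.97 in wild type and 0.54, 0.65 and 0.46 in Arid3b-null on its brightest probe. The groups were far apart, and 31% of the wild-type level remained (log2 change -1.69 ± 0.17, SE, limma adjusted p = 0.00154), with -1.63, -1.92 and -1.51 within slides. The other 2 Arid3b probes, which 2 of 3 Arid3b-null arrays measured above background, gave -3.23 and -1.90, and the mean of the 3 probes -2.27, so the remaining level differs between probes. The sources used here do not say where these probes lie relative to the deleted part. The 5 trunk Hox genes were all tested, with a summed linear level of 13.5 to 15.2 times the 75th percentile in wild type and 11.7 to 14.4 in Arid3b-null, and Hoxa5 fell (limma adjusted p = 0.0411). That call was lost when any array but Arid3b-null replicate 1 was left out (adjusted p of 0.0648 to 0.128), without the filter on dim probes (0.127) and with normexp correction by the median background (0.0756). Each slide held the wild-type and Arid3b-null arrays of the same replicate number, so the members' changes within each of the 3 slides are given beside the means. In pieces of whole trunk, fewer cells of a type and less RNA per cell cannot be told apart.

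Bmp2 (NM_007553), a ligand of surface ectoderm and limb bud among other tissues, read -1.57, -0.81 and -1.25 on the wild-type arrays and -0.23, 0.00 and -0.56 on the Arid3b-null arrays. Every Arid3b-null array was above every wild-type array, although wild-type replicate 2 came close to Arid3b-null replicate 3. The mean went from -1.21 ± 0.38 to -0.26 ± 0.28 (SD, n = 3), and the log2 change was 0.95 ± 0.23 (SE, 95% interval 0.40 to 1.5, limma adjusted p = 0.0261). Within the slides the change was 1.35, 0.81 and 0.69. Bmp2 no longer passed when wild type replicate 1 (adjusted p = 0.0743) or 3 (0.0729) was left out, when Arid3b-null replicate 1 (0.0694) or 2 (0.0801) was, and without a filter on dim probes (0.0867).

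Bmp4 (NM_007554), the ligand of roof plate, lateral mesoderm and ectoderm, read 3.06, 3.14 and 3.12 in wild type and 3.67, 3.54 and 3.39 in Arid3b-null. The wild-type arrays lay close together and all Arid3b-null arrays were higher. The log2 change was 0.42 ± 0.11 (SE, limma adjusted p = 0.035), with 0.61, 0.39 and 0.26 within slides. The call was lost with the slide, which is also the replicate number, as a block (adjusted p = 0.0654), with median scaling (0.0645) and without a filter on dim probes (0.128), and whichever array was left out except Arid3b-null replicate 3 (0.0775 to 0.119). The second Bmp4 probe stayed at background on all 6 arrays and was not tested.

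Bmp7 (NM_007557), a ligand that forms dimers with Bmp2 and Bmp4, read 1.57, 1.92 and 1.83 in wild type and 2.37, 2.42 and 1.95 in Arid3b-null. The groups did not overlap, but the highest wild-type and the lowest Arid3b-null array were nearly level. The log2 change of 0.47 ± 0.17 (SE) did not pass the test (limma adjusted p = 0.0827), with a 95% interval of 0.07 to 0.87 and slides at 0.80, 0.50 and 0.11. It passed without Arid3b-null replicate 3 (adjusted p = 0.046) and with normexp correction by the median background of each array (0.0477). Its change and that of Bmp4 differed by -0.05 within arrays (exact permutation test, two-sided, p = 0.80), and by -0.19, -0.11 and 0.15 on the 3 slides.

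Grem1 (NM_011824) read -0.61, -0.63 and -0.71 in wild type and 0.38, 0.40 and 0.13 in Arid3b-null. These were tight groups, with SDs of 0.05 and 0.15 (n = 3) and a gap much wider than either. The log2 change of 0.95 ± 0.11 (SE, 95% interval 0.68 to 1.23, limma adjusted p = 0.00266) was 0.99, 1.02 and 0.84 within slides. Of the members it had, with Id4, the smallest p, and 3.47% of all genes had a smaller one. The call held whichever array was left out, with adjusted p between 0.00787 and 0.0147.

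Setting the antagonist against a ligand on the same array removes any scaling between arrays. Grem1 minus Bmp4 was -3.67, -3.77 and -3.83 in wild type and -3.29, -3.14 and -3.25 in Arid3b-null. The groups did not overlap, and the difference of 0.53 had an exact permutation p of 0.10 (two-sided), the smallest that 3 arrays against 3 allow. Adjusted over the 7 pairs compared in this way it was 0.14. No pair could pass 0.05 in this design, so these tests cannot tell whether 2 genes changed unequally, and the slides gave 0.38, 0.63 and 0.58. The change of Bmp4 minus that of Bmp2 was -0.53 (exact permutation p = 0.10, adjusted p = 0.14), with -0.74, -0.42 and -0.43 on the slides. With normexp correction by local background these 2 differences turned to -0.04 and 0.15.

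**Figure D1:**
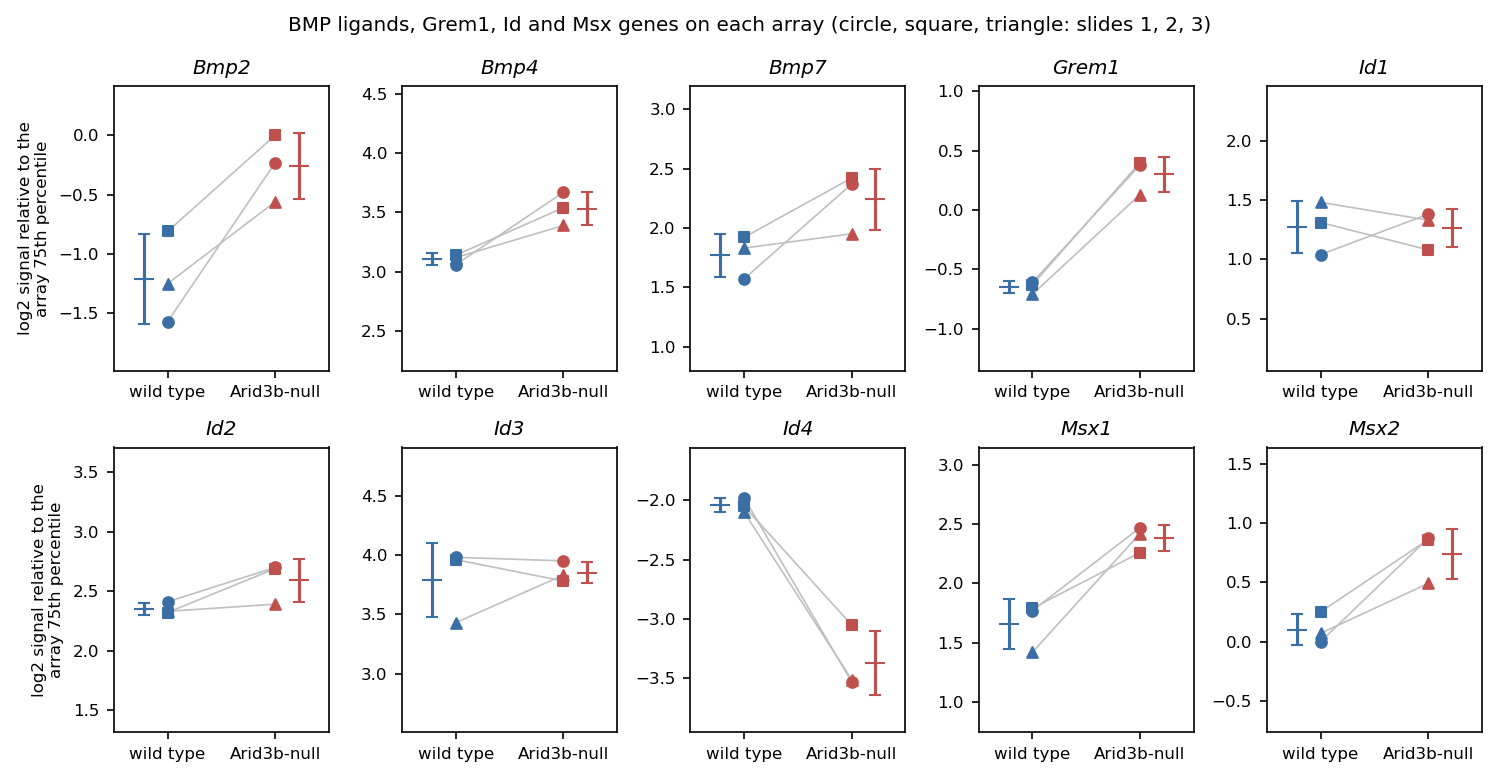
Each panel plots 1 gene's log2 signal relative to the array's 75th percentile for 3 wild-type (blue) and 3 Arid3b-null (red) arrays, lines joining arrays of a slide and bars giving mean and SD, over an equal span of the vertical axis. The groups are apart for Bmp2, Bmp4, Bmp7, Grem1, Id4, Msx1 and Msx2, and overlap for Id1, Id2 and Id3.

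Msx1 (NM_010835), a homeobox gene of roof plate, limb mesenchyme and other BMP-exposed tissue, read 1.77, 1.79 and 1.42 in wild type and 2.47, 2.26 and 2.42 in Arid3b-null. All Arid3b-null arrays were above all wild-type arrays. The mean went from 1.66 ± 0.21 to 2.38 ± 0.11 (SD, n = 3), a rise of 0.72 ± 0.14 (log2, SE, limma adjusted p = 0.0125), and the slides gave 0.69, 0.47 and 1.0. The call held whichever array was left out (adjusted p of 0.0278 to 0.0469) and was lost without a filter on dim probes (0.0551).

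Msx2 (NM_013601), its paralogue, read 0.00, 0.25 and 0.07 in wild type and 0.87, 0.86 and 0.49 in Arid3b-null. The groups did not overlap, and Arid3b-null replicate 3 was the lowest of its group. The log2 change was 0.64 ± 0.14 (SE, limma adjusted p = 0.0204), with 0.87, 0.61 and 0.43 within slides. Msx2 no longer passed when wild type replicate 1 (adjusted p = 0.0757) or 3 (0.0601) was left out, when Arid3b-null replicate 1 (0.0628) or 2 (0.065) was, and without a filter on dim probes (0.0791). The changes of Msx1 and Msx2 differed by 0.09 within arrays (exact permutation test, two-sided, p = 0.60), the slides giving -0.18, -0.14 and 0.57, so the order of the paralogues was not settled.

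The Id genes separated. Id1 (NM_010495) read 1.04, 1.31 and 1.48 in wild type and 1.38, 1.08 and 1.33 in Arid3b-null, and the groups overlapped throughout. Its log2 change was -0.01 ± 0.15 (SE, limma adjusted p = 0.962), with a 95% interval of -0.38 to 0.35, or 0.77-fold to 1.28-fold. The slides gave 0.34, -0.23 and -0.15, so that no direction can be given.

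Id3 (NM_008321), like Id1 a common readout of BMP signalling, read 3.98, 3.96 and 3.43 in wild type and 3.95, 3.78 and 3.83 in Arid3b-null. Wild-type replicate 3 stood lower than the other 5 arrays, which lay close together. The change of 0.06 ± 0.17 (log2, SE, limma adjusted p = 0.818) had a 95% interval of -0.35 to 0.47, and the slides gave -0.03, -0.19 and 0.40. Without that array it was -0.12 (adjusted p = 0.518), so its sign rested on that array.

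Id2 (NM_010496) read 2.41, 2.32 and 2.33 in wild type and 2.70, 2.69 and 2.39 in Arid3b-null. Arid3b-null replicates 1 and 2 were above all wild-type arrays and replicate 3 was level with them. The change of 0.24 ± 0.12 (log2, SE) did not pass (limma adjusted p = 0.197), with a 95% interval of -0.05 to 0.53, which reaches 1.45-fold. Within slides it was 0.29, 0.37 and 0.06.

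Id4 (NM_031166), the Id gene of neural progenitors among other tissues, read -1.98, -2.05 and -2.10 in wild type and -3.53, -3.05 and -3.51 in Arid3b-null. The groups were far apart, with a gap wider than the spread of either. The mean fell from -2.04 ± 0.06 to -3.37 ± 0.27 (SD, n = 3), to 39.9% of wild type (log2 change -1.32 ± 0.15, SE, 95% interval -1.69 to -0.96, limma adjusted p = 0.00239). Within slides the change was -1.55, -1.0 and -1.42, and the call held whichever array was left out (adjusted p of 0.00289 to 0.0137). Its probe gave 143 to 214 processed signal units in wild type and 54.1 to 74.5 in Arid3b-null, well above background on all 6 arrays. With normexp correction by the median background of each array the log2 change was -0.72 (adjusted p = 0.00188), so the size of the fall depends on how background is handled.

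Id4 was set against its 3 paralogues on the same arrays. Id4 minus Id2 was -4.39, -4.37 and -4.42 in wild type and -6.23, -5.75 and -5.90 in Arid3b-null, a difference of -1.56. The differences against Id1 and Id3 were -1.31 and -1.39. In all 3 the groups did not overlap and the exact permutation p was 0.10 (two-sided, the smallest possible here), with an adjusted p of 0.14, so the test over samples could not pass although every slide gave a lower value for Id4.

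**Figure D2:**
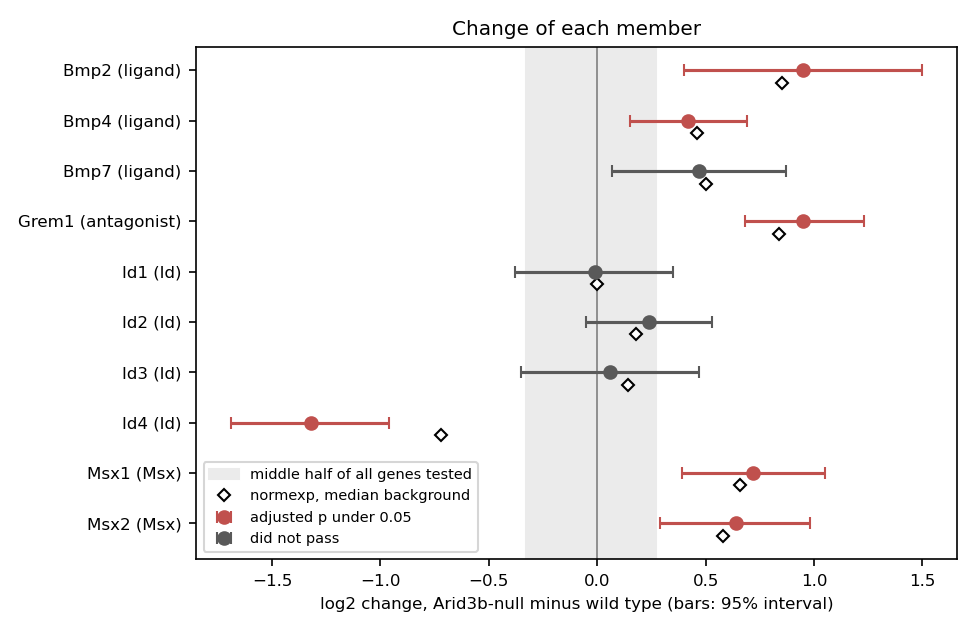
Points give each gene's log2 change, Arid3b-null minus wild type, with 95% intervals from limma (n = 3 arrays per group), open diamonds the change after normexp correction by each array's median, and the grey band, -0.33 to 0.27, holds the middle part of all genes, from the 25th to the 75th percentile. Id1, Id2 and Id3 lie in the band, Id4 is lower at -1.32 and its diamond at -0.72, and the other 6 lie above the band. The normexp correction added an offset of 50 units to each spot.

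**Figure D3:**
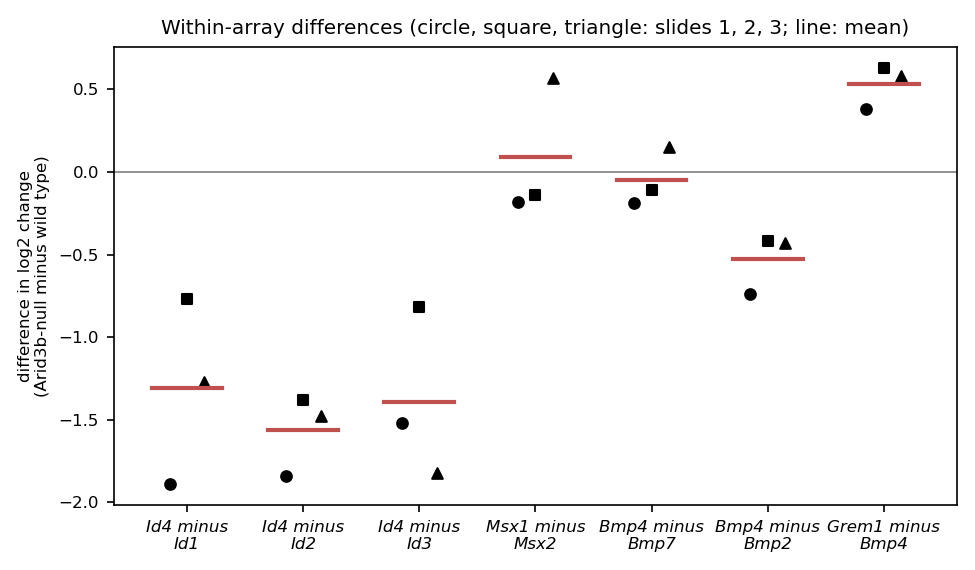
For 7 pairs of genes the plot gives, per slide, the log2 change of the first minus that of the second (Arid3b-null minus wild type), the line marking the mean. All slides are below 0 for Id4 against each paralogue, and slides fall on both sides of 0 for Msx1 minus Msx2 and Bmp4 minus Bmp7.

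The promoters of the Msx pair and of an Id pair are shown because the Msx genes rose together while Id4 fell and Id2 did not pass. RefSeq start sites of build GRCm38.p6 were matched for 7 of the 10 members (all but Bmp2, Bmp7 and Id1), and the 250 bases before each start are printed 5′ to 3′ on the gene's strand. Msx1 is at chr5:37824586-37824835 (minus strand), Msx2 at chr13:53472781-53473030 (minus), Id2 at chr12:25096093-25096342 (minus) and Id4 at chr13:48260866-48261115 (plus). Capitals mark GGCGCC, a GC-rich element bound by Smads of the BMP branch, which reads the same on both strands, and GGAGCC, a related element, searched on both strands (GGCTCC on the printed one). Matches of the 2 motifs do not overlap each other here.
Msx1: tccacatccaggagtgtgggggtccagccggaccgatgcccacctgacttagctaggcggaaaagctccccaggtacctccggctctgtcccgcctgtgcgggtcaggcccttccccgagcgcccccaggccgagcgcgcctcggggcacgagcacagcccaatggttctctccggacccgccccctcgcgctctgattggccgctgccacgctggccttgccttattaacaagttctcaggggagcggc
Msx2: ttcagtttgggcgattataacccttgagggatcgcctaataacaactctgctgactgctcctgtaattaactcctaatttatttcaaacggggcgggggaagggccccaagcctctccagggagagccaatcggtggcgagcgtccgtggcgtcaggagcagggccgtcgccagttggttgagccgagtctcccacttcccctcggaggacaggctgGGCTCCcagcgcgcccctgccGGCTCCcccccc
Id2: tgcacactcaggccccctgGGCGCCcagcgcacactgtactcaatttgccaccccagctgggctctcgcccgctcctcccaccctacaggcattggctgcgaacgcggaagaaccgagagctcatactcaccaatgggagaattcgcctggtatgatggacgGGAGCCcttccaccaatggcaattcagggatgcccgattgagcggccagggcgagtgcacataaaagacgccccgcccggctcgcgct
Id4: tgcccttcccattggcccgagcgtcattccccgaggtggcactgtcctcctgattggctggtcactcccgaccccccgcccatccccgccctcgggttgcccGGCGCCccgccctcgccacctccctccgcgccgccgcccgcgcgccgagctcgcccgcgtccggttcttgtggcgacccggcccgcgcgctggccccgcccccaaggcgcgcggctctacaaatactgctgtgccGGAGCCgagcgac
GGCGCC was in the windows of Id2, Id4 and Grem1, beginning 231, 148 and 78 bases before the start, and in 9.59% of 32851 promoter windows of this length. GGAGCC was in those of Bmp4, Id2, Id3, Id4 and Msx2, in the last of these at 33 and 12 bases before the start, and in 26% of all windows. Msx1, which rose, had neither in this window, while Id4, which fell, and Id2, which did not pass, had both. Grem1, which rose, had GGCGCC only. Bmp4 and Msx2, which rose, and Id3, which did not pass, had GGAGCC only. These are matches of letters, in windows that were 61.6% to 75.6% G and C.

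The other genes of the BMP pathway, 49 from lists by role, gave 45 tested, of which 8 rose and 1 fell, or 20% called against 26.6% of all genes. Their median log2 change was 0.12. This share is near the background and below it, so it is not a result about the pathway.

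Among 7 tested other ligands 2 rose and 0 fell, with a median log2 change of 0.30. Bmp5, a ligand of somites and lateral mesoderm, rose 1.43-fold (limma adjusted p = 0.0173), and Gdf7, a roof plate ligand, 1.53-fold (adjusted p = 0.0278) on its brighter probe and by 1.08 on the log2 scale on the other. Neither passed with normexp correction by the median background of each array (adjusted p = 0.108 and 0.112) or without a filter on dim probes (0.0767 and 0.0975). Bmp5 also failed when wild type replicate 1 (adjusted p = 0.0719), Arid3b-null replicate 1 (0.056) or 2 (0.053) was left out, and Gdf7 for any array but wild type replicate 3 (0.0683 to 0.0926).

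Of 9 tested receptor and co-receptor genes 2 rose and 0 fell, with a median of 0.23. Rgma, a membrane-anchored BMP co-receptor also known from axon guidance, read -1.55, -1.36 and -1.37 in wild type and 0.45, 0.40 and -0.17 in Arid3b-null. The groups were far apart, and the change was 3.14-fold (limma adjusted p = 0.00217). Acvrl1, a type I receptor gene of endothelial cells, rose 2.26-fold (limma adjusted p = 0.00147), from -0.44, -0.41 and -0.42 to 0.87, 0.83 and 0.57. Both calls held whichever array was left out. Of the 8 Smad and Smurf genes that carry or damp the signal 0 passed in limma, with a median of 0.09. Smurf1, a ubiquitin ligase of Smads, had the smallest p (log2 change 0.54, adjusted p = 0.0612, and 0.0384 with the slide as a block), and the inhibitory Smad6 changed by 0.37 (adjusted p = 0.13).

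Of 11 tested other antagonist genes 2 rose and 1 fell, with a median of 0.07. Fst, whose product follistatin binds activins and some BMPs, read 1.11, 1.37 and 1.17 in wild type and 2.71, 2.53 and 2.34 in Arid3b-null, and rose 2.48-fold (limma adjusted p = 0.00171). Sostdc1, a secreted BMP and Wnt antagonist, rose 2.13-fold (adjusted p = 0.00367) and similarly on its other probe, by 1.03 on the log2 scale. Nbl1, of the same DAN family as Grem1, fell 1.68-fold (adjusted p = 0.00737), from 0.85, 0.74 and 0.70 to 0.19, 0.01 and -0.14. So the secreted antagonists that passed, Grem1 with these 3, went in both directions. Nog, the noggin gene, named here after its values were seen, did not pass (log2 change -0.40 ± 0.30, SE, limma adjusted p = 0.369).

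Of 10 tested other target genes 2 rose and 0 fell, with a median of 0.20. Dlx5, a homeobox gene of limb ectoderm and pharyngeal arches, rose 1.86-fold (limma adjusted p = 0.0136), and Gata3 1.62-fold (adjusted p = 0.0155). Without a filter on dim probes neither passed (adjusted p = 0.0554 and 0.0641), and Gata3 failed when wild type replicate 1 (0.0606), Arid3b-null replicate 1 (0.05) or 2 (0.052) was left out. Smad6, Smad7 and Smad9 are in this list and in the one before. The only probe of Bambi, a decoy receptor gene that BMPs induce, stayed at background throughout, so Bambi was not tested. Of the 3 E protein genes, whose products pair with Id proteins, 0 passed in limma, and Tcf3 had the smallest p (log2 change -0.25, adjusted p = 0.125), followed by Tcf12 (-0.07, adjusted p = 0.79).

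**Figure D4:**
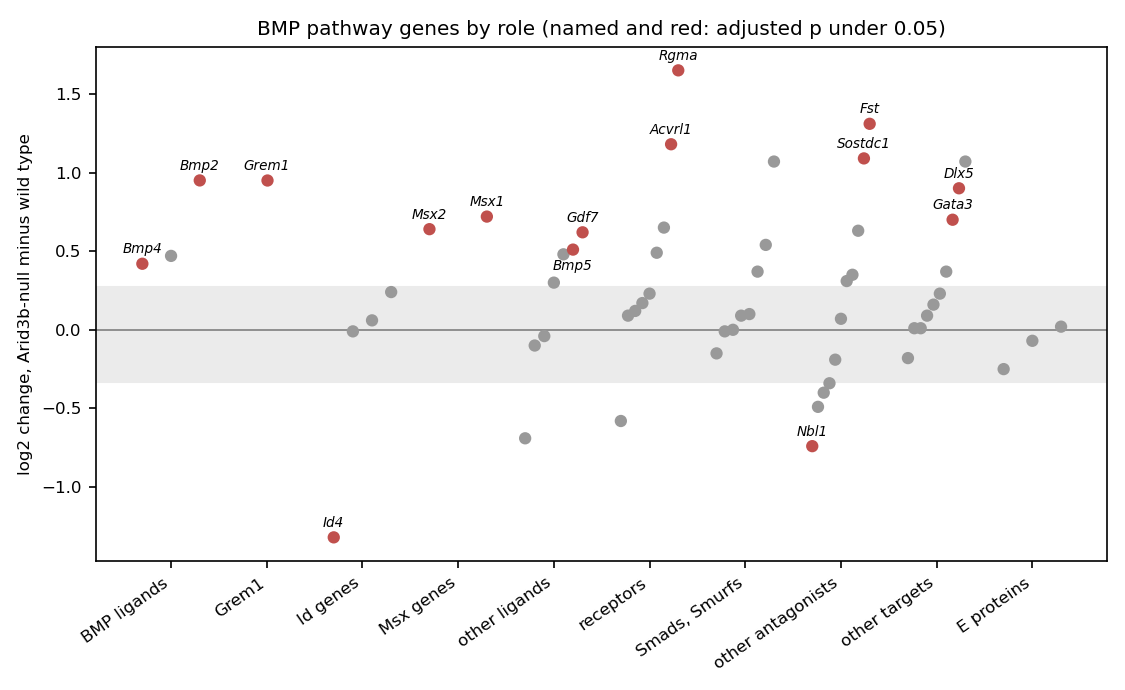
Each point is a tested gene's log2 change, Arid3b-null minus wild type, grouped by role in the BMP pathway, with called genes in red and named, and the 25th to 75th percentile of all genes in grey. Msx1, Msx2, Bmp2, Bmp4 and Grem1 lie above the band and Id4 at -1.32 below all other points, while no Smad or Smurf gene is red.

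Marker genes of several tissues moved in the same samples, and their part in the changes was not tested. The counts called in the marker lists below stand against 26.6% of all tested genes, 13.6% higher and 12.9% lower. No list was tested as a set. Beside the fall of Id4, 8 of 8 early neuron genes fell, their summed linear level going from 10.2 to 12.3 in wild type to 1.82 to 2.21 in Arid3b-null. Of 8 neural tube progenitor genes 5 fell and 0 rose, with a sum of 41 to 45.4 against 17.2 to 20.6, Dbx1 falling 7.91-fold. Hes5 weighed most in the sum, with log2 means of 4.94 in wild type and 3.67 in Arid3b-null. Sox1, Sox2 and Pax6 did not pass (log2 changes -0.33, -0.02 and -0.09, limma adjusted p = 0.167, 0.946 and 0.646). Beside the rises of Bmp4, Msx1 and Msx2, 4 of 8 tested roof plate and dorsal neural tube genes rose and 0 fell, Gdf7 among them and Lmx1a 2.23-fold. Pax3, Zic1, Olig3 and Atoh1 did not pass (log2 changes 0.11, -0.13, -0.21 and -0.94, limma adjusted p = 0.492, 0.485, 0.179 and 0.0555). The sum of this list was 18.5 to 19.1 in wild type and 10.8 to 19.6 in Arid3b-null. The low value, of Arid3b-null replicate 1, lacks Zic1, which has no usable spot there, so it cannot be set against the other sums. Zic1 read 3.32, 3.26 and 3.29 in wild type and 3.27 and 3.04 on the other Arid3b-null arrays. The only probe of Wnt3a, also of this list, stayed at background.

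Beside the same rises and that of Bmp2, 5 of 8 surface ectoderm and epithelial genes rose and 0 fell, with a sum of 27.8 to 41.4 in wild type and 61.2 to 71.2 in Arid3b-null, Krt19 rising 4.96-fold. Krt18 weighed most in the sum, with log2 means of 4.37 in wild type and 5.23 in Arid3b-null. Trp63, Epcam and Cdh1 did not pass (log2 changes -0.02, 0.42 and 0.56, limma adjusted p = 0.952, 0.146 and 0.0552). Neural crest genes gave 3 up and 0 down of 6, with a sum of 6.1 to 7.34 against 9.41 to 10.1. Genes of the apical ectodermal ridge gave 3 up and 0 down of 7 tested, with a sum of 2.17 to 2.21 against 2.37 to 3.02. Fgf8, Sp8, Fgf4 and Dlx6 of this list did not pass (log2 changes 0.26, 0.02, -0.2 and -0.42, limma adjusted p = 0.276, 0.899, 0.503 and 0.408). Dlx5 is in this list too, and the only probe of En1 was at background throughout. Beside the rise of Grem1, 1 forelimb mesenchyme gene of 8 tested rose and 3 fell. Fgf10 rose by 0.84 on the log2 scale (limma adjusted p = 0.00364). Lhx9, Shh and Lhx2 fell (log2 changes -1.45, -0.66 and -0.46, limma adjusted p = 0.00109, 0.0229 and 0.046). The sums of this list overlapped at 17.1 to 18 in wild type and 16 to 18.1 in Arid3b-null. Hoxd13 was well above background on 4 arrays and was not tested.

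Endothelial genes, in a tissue where Id1, Id3 and Acvrl1 are expressed, gave 1 up and 0 down of 7, with overlapping sums of 6.91 to 10.3 and 6.14 to 7.91. Tie1, which rose 1.52-fold (limma adjusted p = 0.0281), was the gene called. It was lost with the slide as a block (0.0508), with median scaling (0.0551), without a filter on dim probes (0.0986), and when either wild type replicate 1 (0.0902) or 3 (0.0775) was left out, likewise for Arid3b-null replicates 2 (0.0719) and 3 (0.0863). Somite genes gave 0 up and 2 down of 6 tested (sums 11.8 to 13.1 and 9.7 to 11.9), with Pax1 falling by 1.95 on the log2 scale. The only probe of Myf5 was at background. Primitive erythroid genes gave 0 up and 2 down of 6 (572 to 755 and 456 to 544). The 2 called were Klf1 and Gata1, with log2 means of -0.48 and -0.15 in wild type. Hba-x, Hbb-bh1 and Hbb-y weighed most in the sum and did not pass (limma adjusted p = 0.0749, 0.149 and 0.186). Of 8 genes induced by low oxygen 8 rose, with a sum of 343 to 425 in wild type and 676 to 711 in Arid3b-null, Ndrg1 by 16.3-fold, in the same samples as all the changes above.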

How the data were processed

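Per the labels' protocols, RNA of 4 pooled embryos per array was amplified and labelled with Cy3. Per the file headers, spots were read with Agilent Feature Extraction 10.7.3.1 (protocol GE1_107_Sep09, array design 026655). That deposited signal is a linear intensity, already background-subtracted by the software. The deposited value table holds log2 values of 24181 probes, normalized by a method not given in the sources used here, with column medians of 6.77 and correlations of 0.999 or more with each array's log2 processed signal. It served as an alternative.

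Main values were log2 processed signal minus the 75th percentile of non-control spots. Outlier spots, 100 to 169 on each array, were left out, and the spots of each probe averaged. RefSeq names (GRCm38.p6) matched 26424 of 39429 probes. A probe without a name was counted as a gene under its accession, and 14211 of the 19795 genes tested had a symbol. Tested were 24423 probes well above background on every array of 1 group or both, each gene by its brightest. Arid3b-null was compared with wild type with limma 3.58.1 (lmFit, eBayes; R 4.3.3), two-sided, Benjamini-Hochberg over 19795 genes, threshold 0.05. Adjusted p-values of genes are limma's. The fit was tested on simulated data. Deviations from group means correlated at 0.16, 0.39 and 0.28 between arrays of a replicate number, which share a slide, so the numbers were taken as pairs and fitted as a block in an alternative. Pairs of genes were compared by exact permutation tests. Normexp corrections, used only in alternatives, added an offset of 50 units to each spot.

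Members and lists were chosen with earlier results of these data known. Named are Arid3b, the members, up to 4 called genes of each pathway list with the smallest adjusted p (2 with the smallest p where none passed) and up to 2 genes of a cell type list. Genes of cell type lists named beyond these were added after their values were seen. A list of marker genes from outside the dissected piece is not reported here. A summed level adds linear values, relative to the 75th percentile, over a list's tested genes. A missing value adds nothing to it. The number of arrays, 3 per group, limits the precision, and the background correction also moves it.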

Additional observations from a re-analysis of the deposited data

How the results depend on the processing

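With 3 pools per group the calls near the threshold were the unstable ones. The 6 member calls became 2 without a filter on dim probes (Grem1 and Id4), where 5 of the other pathway genes and 2286 of all genes were called. They were 3 to 7 when 1 array was left out, with 2871 to 3922 over all genes. With the replicate number, which is also the slide, as a block there were 5 (Bmp4 lost), 13 pathway genes and 4776 genes in all. Among genes named by the stated rule, the block changed only the further calls of Smurf1 and Tie1. Under normexp with local background limma called 0 members (6 at an unadjusted p under 0.05), 0 pathway genes (7 unadjusted) and 2 genes in all (1901 unadjusted), and the median of all genes moved to -0.22. Leaving out 12 spots of wild type replicates 2 and 3 whose local background lay over 20 units above the spot, a setting added after seeing the data, gave 7 members, 8 pathway genes and 4461 genes. In that fit with every spot the sign turned for Id1 (0.19), Bmp5 (-0.55), Gdf7 (-0.47), Dlx5 (-0.28), Tcf3 (0.03), Tcf12 (0.11) and Erbb3 (-0.61), and for Bmp4 minus Bmp7 (0.03), Bmp4 minus Bmp2 (0.15) and Grem1 minus Bmp4 (-0.04). Id1 was 0.02 after quantile normalization and 0.00 in the deposited table, and Tcf12 was 0.01 with the mean of its probes. Leaving out 1 array gave Id1 -0.13 to 0.09, Id3 -0.12 to 0.16, Tcf12 -0.17 to 0.10, Msx1 minus Msx2 -0.06 to 0.20 and Bmp4 minus Bmp7 -0.13 to 0.03. The Id4 fall ranged from -1.48 to -0.72 over 16 alternatives and the Grem1 rise from 0.70 to 1.04, each call lost only under normexp with local background.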
